A study of Mus musculus with 18 samples.

Results

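RNA was sequenced from cultured mouse cortical neurons that lacked Fmr1 or carried it intact, and the comparison described here sets knockout (KO) against wild type (WT) neurons when both had been exposed to JQ1. It contrasts 6 of the 12 libraries in the analysed count table, 3 of KO and 3 of WT, selected by their labels alone. Every gene of the table other than spike-in sequences was used. The spread of each gene was estimated over all 12 libraries. Of 37310 genes, 15433 had enough reads to be tested. Cortical neurons were taken from WT or Fmr1-/- mice, kept for 7 days in a serum-free neuronal medium and then given JQ1 for 24 h, with vehicle (DMSO) cultures of both genotypes alongside (3 libraries each). The labels give no strain, sex, age or JQ1 dose and do not state whether n1 to n3 come from different animals or cultures. The p-values thus reflect only how far these samples scatter, which may be technical in part. Replicate 3 of KO held little Xist in both treatments (below), so it was not a repeat of the sample behind n1 or n2. The 6 THZ1 samples of the labels were not analysed here.

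Fmr1 encodes FMRP, an RNA-binding protein that sits on many neuronal messenger RNAs, lowers their translation and is missing in fragile X syndrome. JQ1 occupies the acetyl-lysine pockets of the BET bromodomain proteins, which recruit the elongation kinase P-TEFb to acetylated chromatin. The comparison asks which transcripts differ between the genotypes while BET proteins are blocked, and whether that difference departs from the one in vehicle.

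The libraries held 21643592 to 134110850 gene counts in WT and 34625688 to 78331837 in KO. Levels below are CPM, reads per 1000000 after scaling of library sizes, in the order n1, n2, n3. KO replicate 3 stood apart in sex-linked RNA: the X-silencing transcript Xist was at 441.1, 249 and 274 CPM in WT and 271, 259 and 4.34 in KO, and Ddx3y, a Y-linked helicase gene, stood at 40.9, 46.1 and 43.7 CPM in WT and 34.5, 38.5 and 76.2 in KO. The other 5 JQ1 libraries thus held both RNAs, whereas this one held little Xist. WT replicate 3, the shallowest library, held more of some ventral and medial forebrain genes than its group, such as Zic4 (0.865, 0.285 and 4.90 CPM in WT) and Nkx2-1 (0.269, 0.215 and 2.33 CPM). Neuron genes marked all 6 libraries, with the excitatory neuron gene Neurod6 at 404, 393 and 366 CPM in WT and 354, 425 and 447 in KO and the tubulin gene Tubb3 at 2243, 2096 and 2093 CPM in WT and 2297, 2530.1 and 2322 in KO. Summed markers of microglia (15 tested, 20.1 to 24.6 CPM in WT and 22.2 to 27.2 in KO) and of endothelial and mural cells (9 tested, 16.3 to 18.7 and 16.1 to 18.1) were low in both genotypes, and 0 of either list were called. Astrocyte and progenitor markers, which differed, are given below.

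**Figure D1:**
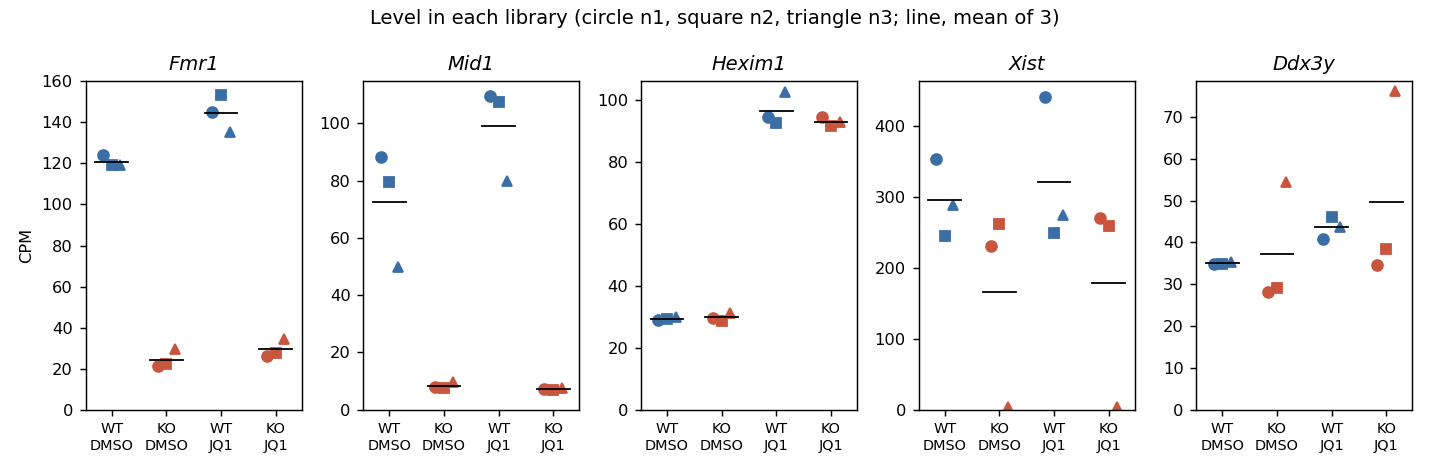
Level of 5 genes in each of the 12 libraries (y axis, CPM, starting at 0; x axis, genotype and treatment; blue WT, red KO; circle n1, square n2, triangle n3; line, mean of 3). Fmr1 and Mid1 are low in every KO library, Hexim1 is near 30 in DMSO and above 90 in JQ1 in both genotypes, and KO replicate 3 has little Xist and the most Ddx3y in either treatment.

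Fmr1 (ENSMUSG00000000838) was at 145, 154 and 135 CPM in WT and 26, 27.6 and 34.6 in KO (log2 change -2.30, SE 0.113, adjusted p = 7.65e-08). All KO libraries lay far below all WT libraries, with reads still mapping to the gene. Mid1 (ENSMUSG00000035299), which lies on the X chromosome and encodes a ubiquitin ligase bound to microtubules, was at 109.7, 107 and 79.9 CPM in WT and 7.07, 6.98 and 7.72 in KO (log2 change -3.79, SE 0.192, adjusted p = 7.65e-08), the larger fall of this pair. Among the 20 tested X-linked genes nearest to Fmr1, 10 on either side by RefSeq order, 1 rose and 0 fell (median log2 change -0.10). That gene was Mamld1, a Notch pathway coactivator, at 15.5, 15.4 and 14.7 CPM in WT and 28.2, 21.2 and 20.8 in KO (log2 change 0.61, SE 0.0981, adjusted p = 0.0029). Of the 11 tested genes nearest to Mid1, 0 rose and the noncoding G530011O06Rik fell (log2 change -1.86, SE 0.447, adjusted p = 0.0211). Whether strand was used in counting is not stated, so reads of overlapping or antisense genes cannot be told apart. Of 14 FMRP paralogs and partners, 0 rose and 2 fell, Fmr1 itself and the RNA-binding protein gene Igf2bp1 (log2 change -0.85, SE 0.166, adjusted p = 0.00787; 0.0609 without WT_JQ1 replicate 2). The paralogs Fxr1 (-0.05, adjusted p = 0.498) and Fxr2 (0.14, adjusted p = 0.058) did not pass.

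BET blockade was read from Hexim1, an inhibitor of P-TEFb that rises when BET proteins are blocked. In JQ1 it was at 94.7, 92.7 and 103 CPM in WT and 94.7, 91.6 and 92.9 in KO, against 28.8, 29.2 and 29.9 in WT and 29.8, 28.6 and 31.2 in KO in DMSO. The genotypes overlapped in JQ1 (log2 change -0.05, SE 0.0471, adjusted p = 0.523). Of 26 genes of BET proteins, P-TEFb and its regulators, 1 rose, the elongation factor gene Supt5h (0.15), and 3 fell: Aff1 (-0.39), a scaffold of the super elongation complex, the kinase gene Cdk13 (-0.18) and the germ cell BET gene Brdt (-0.31). Without WT_JQ1 replicate 1, WT_JQ1 replicate 2 or KO_JQ1 replicate 1, 0 of the 26 were called. In a fit to the 6 JQ1 libraries alone 0 were called as well.

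Over all tested genes, 1385 (8.97%) passed a Benjamini-Hochberg adjusted p of 0.05 (quasi-likelihood F test in edgeR), 748 (4.85%) higher and 637 (4.13%) lower in KO. The differences were small, with a median absolute log2 change of 0.26 among genes that rose and 0.34 among those that fell, and changes beyond 1.5-fold numbered 62 upward and 120 downward. Libraries of the genotypes were fully separated in 4162 genes (27% of those tested), among them 1350 of the 1385 called. Calls were more frequent among abundant genes: 2.13% of genes under 1 CPM passed, with a median absolute log2 change of 1.30, and 13.8% of genes over 100 CPM, with a median of 0.23. Among 553 long intergenic noncoding RNAs 2 rose and 7 fell (1.63%), against 737 and 606 of 14163 protein-coding genes (9.48%). X-linked genes had 18 higher and 33 lower of 491 (10.4%), and autosomal genes 651 and 540 of 12857 (9.26%). Leaving out WT_JQ1 replicate 1 gave 551 calls, WT_JQ1 replicate 2 534, KO_JQ1 replicate 1 603 and KO_JQ1 replicate 2 823, whereas the count was 2027 without KO_JQ1 replicate 3 and 2469 without both KO replicate 3 libraries. A fit to the 6 JQ1 libraries alone, without the DMSO libraries in its spread, gave 630 calls. Every log2 change is measured against the middle of the tested genes. Scaling to spike-in RNA moved the median of all genes by -0.12 and called 23 genes, 5 higher and 18 lower.

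Cortical neuron types were compared first. Projection neurons of the deep layers send axons out of the cortex and are specified by Fezf2, Bcl11b, Sox5 and Tbr1, whereas upper-layer neurons connect within the cortex and express Cux1 and Lhx2. Of 24 tested deep-layer markers 11 fell and 1 rose (median log2 change -0.43), and of 17 upper-layer markers 7 rose and 1 fell (median 0.21). The median over all genes was -0.0045, and 1 further member of either list had too few reads to be tested. In bulk RNA, fewer cells of a type and less RNA per cell cannot be told apart.

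Sox5, a transcription factor that times deep-layer neuron migration and fate, was at 60.8, 62.6 and 52 CPM in WT and 26.6, 28.6 and 25.9 in KO (log2 change -1.12, SE 0.0774, adjusted p = 3.58e-06). Fezf2, the selector gene of subcerebral projection neurons, was at 54.8, 50.3 and 50.7 CPM in WT and 24.7, 32.5 and 24.8 in KO (log2 change -0.92, SE 0.102, adjusted p = 4.10e-04). Its partner Bcl11b, needed for their axons to reach the spinal cord, was at 137, 132 and 141 CPM in WT and 89.6, 95.1 and 86.5 in KO (log2 change -0.59, SE 0.0578, adjusted p = 1.45e-04). In each of these genes every KO library was below every WT library. Tbr1, the layer 6 determinant, was at 154, 142 and 145 CPM in WT and 103, 107 and 109 in KO (log2 change -0.47, SE 0.0566, adjusted p = 7.13e-04), and Tle4, a corepressor of corticothalamic neurons, at 72.2, 75.3 and 67.8 CPM in WT and 31.6, 44.1 and 39.8 in KO (log2 change -0.90, SE 0.108, adjusted p = 7.05e-04). Nxph3, a secreted neurexin ligand, was at 12.6, 12.8 and 12.6 CPM in WT and 4.62, 6.66 and 5.20 in KO (log2 change -1.18, SE 0.13, adjusted p = 4.05e-04). These 3 genes also showed no overlap. Zfpm2 (-0.74), a GATA cofactor of corticothalamic neurons, Hs3st4 (-0.88), a heparan sulfate sulfotransferase, Nfia (-0.63), Nr4a2 (-0.78), an orphan nuclear receptor of the subplate, and Etv1 (-0.45), a layer 5 factor, fell as well. The member that rose, Crym, a thyroid hormone binding protein of corticospinal neurons, was at 3.96, 3.78 and 3.69 CPM in WT and 3.91, 8.79 and 7.30 in KO (log2 change 0.83, SE 0.234, adjusted p = 0.0413). Its groups overlapped, and its call was lost in 5 of the 6 fits that left out 1 JQ1 library, KO_JQ1 replicate 1 being the exception. Across those 6 fits, 10 to 12 of the deep-layer markers fell. Ntsr1, another deep-layer marker, was at 56.2, 56.6 and 48.8 CPM in WT and 59.8, 64.7 and 58.8 in KO. It did not pass (0.18, adjusted p = 0.0674), although every KO library was above every WT library. Foxp2 did not pass either (0.21, adjusted p = 0.389), with overlap.

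Lhx2, a LIM homeobox gene of upper-layer neurons and progenitors, was at 201, 205 and 191 CPM in WT and 273, 269 and 253 in KO (log2 change 0.41, SE 0.0557, adjusted p = 0.00142). Rasgrf2, a Ras exchange factor of layer 2/3 neurons, was at 44.9, 44.6 and 36.8 CPM in WT and 73, 60.2 and 58.4 in KO (log2 change 0.59, SE 0.0915, adjusted p = 0.00281). Mdga1, a cell surface protein that guides upper-layer migration, was at 138, 129 and 134 CPM in WT and 179, 188 and 159 in KO (log2 change 0.39, SE 0.0698, adjusted p = 0.00522). All KO libraries exceeded all WT libraries in these genes. Cux1 (0.21, adjusted p = 0.0155), the adhesion gene Pvrl3 (0.23, 0.00968) and Inhba (0.69, 0.0165), the activin A subunit gene, also rose, and the semaphorin receptor gene Plxnd1 fell (-0.35, 0.0437). Without single JQ1 libraries these adjusted p-values went as high as 0.0884, 0.0626, 0.0539 and 0.128. Cux2, the paralog of Cux1, was at 55.3, 53.5 and 50.7 CPM in WT and 52.4, 55.4 and 53 in KO and did not pass (0.01, adjusted p = 0.947), whereas in DMSO it rose (0.32, adjusted p = 0.00514). The difference between those changes did not pass adjustment (unadjusted p = 0.00292 in edgeR's test). The number of upper-layer markers that rose was 4 without WT_JQ1 replicate 1, 4 without KO_JQ1 replicate 2 and 5 without KO_JQ1 replicate 1. Among genes shared by excitatory neurons (median 0.06), the vesicular glutamate transporter gene Slc17a7 was at 59.8, 61.1 and 61.1 CPM in WT and 46.5, 78.4 and 63.3 in KO (0.06, adjusted p = 0.829), with overlap. Of 15 such genes 2 rose, the kinase genes Camk2a (0.32) and Camk2b (0.22), and Tbr1 fell. Neither kinase gene passed without WT_JQ1 replicate 1 or without KO_JQ1 replicate 2, and Camk2b passed only in the fit without KO_JQ1 replicate 3 among the 6 that left out 1 JQ1 library (adjusted p up to 0.124).

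**Figure D2:**
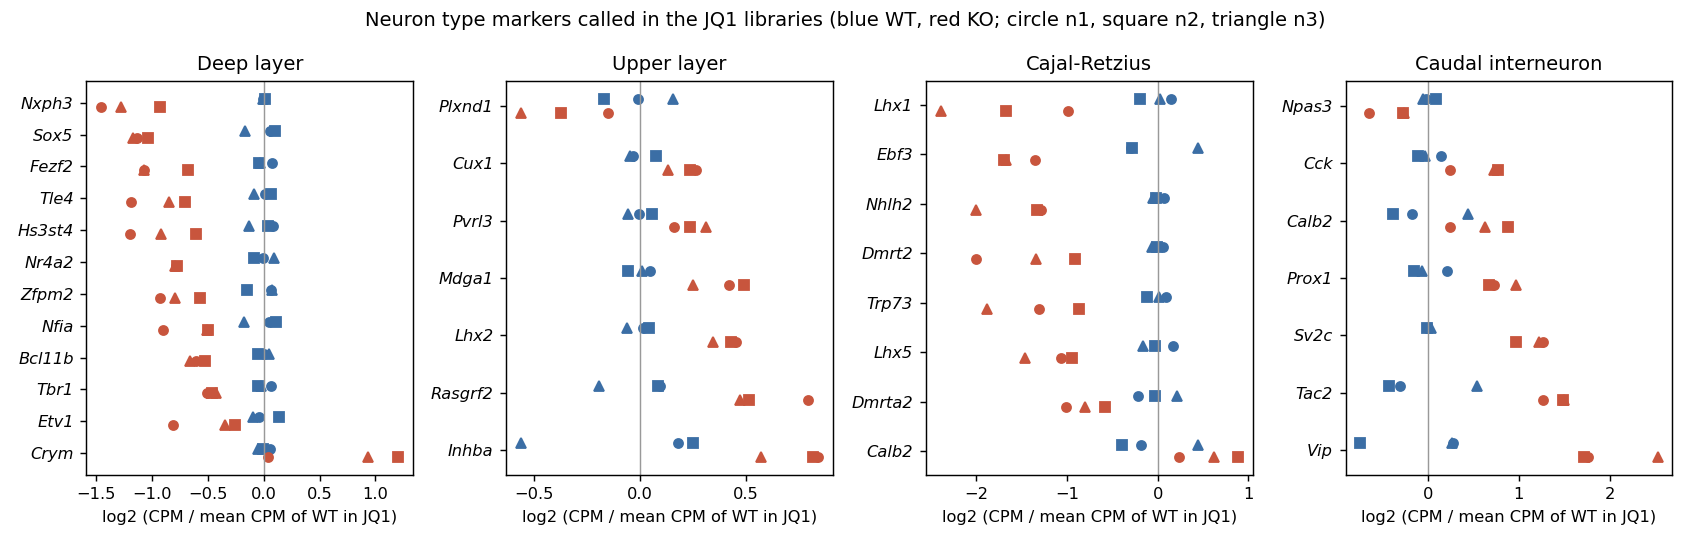
Each point is 1 JQ1 library, placed by the log2 ratio of its CPM to the mean of the WT JQ1 libraries (x axis), for the called members of 4 neuron type lists that are reported by name (rows). Deep-layer genes other than Crym and Cajal-Retzius genes other than Calb2 lie to the left in KO (red), and upper-layer genes other than Plxnd1 lie to the right.

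Cajal-Retzius cells, early-born reelin-secreting neurons of the cortical surface, were represented by 22 tested markers, of which 8 fell and 1 rose (median -0.21). The transcription factor gene Nhlh2 was at 3.77, 3.54 and 3.45 CPM in WT and 1.48, 1.43 and 0.897 in KO (log2 change -1.47, SE 0.182, adjusted p = 8.26e-04). Trp73, the p53 relative that Cajal-Retzius cells need to survive, was at 5.42, 4.67 and 5.14 CPM in WT and 2.06, 2.78 and 1.38 in KO (log2 change -1.21, SE 0.19, adjusted p = 0.00282). Ebf3, which marks these cells and their sources, was at 1.71, 1.71 and 2.85 CPM in WT and 0.818, 0.649 and 0.658 in KO (log2 change -1.48, SE 0.201, adjusted p = 0.00142). No KO library reached the lowest WT library in any of them. The LIM homeobox genes Lhx1 (-1.53) and Lhx5 (-1.11), the DM-domain genes Dmrt2 (-1.28) and Dmrta2 (-0.74) and A930038C07Rik (-0.47) fell too, all but the last from means under 10 CPM. Reelin itself did not follow: Reln was at 223, 199.6 and 298 CPM in WT and 293, 245 and 251 in KO (0.13, adjusted p = 0.68), and interneurons express it as well. Markers of other Cajal-Retzius origins were uneven between WT libraries, such as Zic1 at 6.60, 3.02 and 18.1 CPM in WT and 13.3, 16 and 14.2 in KO (0.88, adjusted p = 0.314). Eomes, which also marks intermediate progenitors, was at 0.75, 0.261 and 0.654 CPM in WT and 2.61, 2.28 and 0.239 in KO, with KO replicate 3 below every WT library. The fallen members numbered 7 or 8 in every fit that left out 1 JQ1 library, and 8 without both KO replicate 3 libraries.

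GABAergic interneurons reach the cortex from the caudal and medial ganglionic eminences. Of 19 tested markers of the caudal class 7 rose and 2 fell (median 0.27), and of 17 of the medial class 0 rose and 2 fell (median 0.21). Vip, the neuropeptide of disinhibitory interneurons, was at 0.654, 0.323 and 0.654 CPM in WT and 1.85, 1.79 and 3.14 in KO (log2 change 2.22, SE 0.34, adjusted p = 0.00262). Tac2, the neurokinin B precursor, was at 0.673, 0.615 and 1.21 CPM in WT and 2.01, 2.33 and 2.36 in KO (log2 change 1.62, SE 0.201, adjusted p = 8.26e-04). Prox1, the homeobox gene that specifies the caudal class, was at 5.58, 4.33 and 4.62 CPM in WT and 8.0, 7.68 and 9.48 in KO (log2 change 0.79, SE 0.125, adjusted p = 0.00284). In all of them KO exceeded WT without overlap, although Vip and Tac2 were at 3.14 CPM or less in the JQ1 libraries. The vesicle protein gene Sv2c was at 2.38, 2.39 and 2.47 CPM in WT and 5.83, 4.74 and 5.65 in KO (log2 change 1.15, SE 0.178, adjusted p = 0.00274), and the peptide gene Cck at 18.6, 15.6 and 16.3 CPM in WT and 19.9, 28.7 and 27.7 in KO (log2 change 0.61, SE 0.109, adjusted p = 0.00549). Calb2 (0.71), a calcium buffer that Cajal-Retzius cells share, and 6330527O06Rik (1.29) were the others that rose, and Npas3 (-0.39) and A930038C07Rik fell. In the medial class, the peptide gene Sst at 94, 68.7 and 118 CPM in WT and 112, 94.4 and 85.1 in KO (0.07, adjusted p = 0.821) and the specifying homeobox gene Lhx6 at 51.9, 48.1 and 63.5 CPM in WT and 68, 64.7 and 63.1 in KO (0.27, adjusted p = 0.0527) did not pass, and Pvalb had too few reads to be tested. The fallen members were the NMDA receptor gene Grin3a, at 28.8, 28.5 and 31.1 CPM in WT and 19.8, 20.8 and 18.2 in KO (log2 change -0.58, SE 0.0804, adjusted p = 0.0016), and the glycosyltransferase gene Mgat4c (log2 change -0.92, SE 0.176, adjusted p = 0.00738). Among 15 genes shared by interneurons 3 rose and 0 fell, with the homeobox genes Dlx5 (log2 change 0.59, SE 0.164, adjusted p = 0.0396) and Dlx1 (0.31) among those that rose. Gad1, which makes GABA, was at 171, 149.7 and 228 CPM in WT and 272, 212 and 248 in KO without passing (0.42, adjusted p = 0.057). Without both KO replicate 3 libraries the caudal class had 6 higher and 4 lower, the medial class 3 and 2, and the shared genes 1 and 1. The shared genes had 8 higher without WT_JQ1 replicate 3, and 1 when replicate 1 or 2 of WT_JQ1, or replicate 1 or 3 of KO_JQ1, was left out. The caudal count was 5 without WT_JQ1 replicate 2.

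Immediate early genes are transcribed within minutes of neuronal firing through CREB and SRF, and many of their products are transcription factors. Of 23 tested, 4 rose and 3 fell in KO (median 0.08), so the list had no single direction. Npas4, an activity-specific factor that recruits inhibitory synapses, was at 1.44, 1.42 and 1.54 CPM in WT and 4.27, 2.41 and 2.57 in KO (log2 change 1.06, SE 0.248, adjusted p = 0.0182). The nuclear receptor gene Nr4a1 was at 4.12, 3.11 and 3.13 CPM in WT and 5.36, 4.86 and 4.55 in KO (log2 change 0.51, SE 0.124, adjusted p = 0.0215). Egr1, a zinc finger factor, was at 19.3, 19.3 and 17.9 CPM in WT and 24, 27.3 and 30.7 in KO (log2 change 0.53, SE 0.128, adjusted p = 0.0218). KO lay above WT in all libraries for these genes, whereas the groups overlapped for Fos, at 3.65, 3.36 and 4.34 CPM in WT and 5.54, 4.28 and 5.50 in KO (log2 change 0.46, SE 0.133, adjusted p = 0.0472). Nr4a2, of the same receptor family as Nr4a1 and counted above as a subplate marker, was at 26.7, 25.2 and 28.5 CPM in WT and 15.6, 15.7 and 15.4 in KO (log2 change -0.78, SE 0.0796, adjusted p = 2.42e-04). The AP-1 gene Fosl2 was at 104, 102 and 86.6 CPM in WT and 60.3, 81.3 and 64.3 in KO (log2 change -0.51, SE 0.0995, adjusted p = 0.00804), and Ier5, an immediate early nuclear protein gene, at 39.4, 36.2 and 37.8 CPM in WT and 28.5, 31.2 and 29.3 in KO (log2 change -0.35, SE 0.069, adjusted p = 0.00879). KO lay below WT in all libraries for these genes. The falls held in every fit that left out 1 JQ1 library. The rises did not: their adjusted p-values went as high as 0.0887 for Npas4, 0.136 for Nr4a1, 0.0761 for Egr1 and 0.217 for Fos. Without WT_JQ1 replicate 2 none of the 4 passed, and without both KO replicate 3 libraries all but Fos did. The activity markers Arc (0.34, adjusted p = 0.192) and Bdnf (0.40, adjusted p = 0.151) did not pass. Among 30 activity-regulated effector genes 3 rose and 1 fell, and 1 rose when any 1 JQ1 library other than KO_JQ1 replicate 3 was left out. The one that fell was not called without KO_JQ1 replicate 1.

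The promoters of the receptor genes that moved apart are shown with those of Npas4 and Fos, because CREB, a regulator of activity-dependent promoters, binds the motif TGACG or, on the other strand, CGTCA. Each is the 250 bases before the RefSeq transcription start (GRCm38.p6), 5′ to 3′ along the gene, with these motifs in capitals.
Npas4 (chr19:4989972-4990221, minus strand): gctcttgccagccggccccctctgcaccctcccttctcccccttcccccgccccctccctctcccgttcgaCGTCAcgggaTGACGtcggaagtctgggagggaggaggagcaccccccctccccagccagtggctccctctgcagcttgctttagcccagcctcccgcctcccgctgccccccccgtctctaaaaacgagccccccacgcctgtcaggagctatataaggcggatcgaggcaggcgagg
Nr4a1 (chr15:101266596-101266845, plus strand): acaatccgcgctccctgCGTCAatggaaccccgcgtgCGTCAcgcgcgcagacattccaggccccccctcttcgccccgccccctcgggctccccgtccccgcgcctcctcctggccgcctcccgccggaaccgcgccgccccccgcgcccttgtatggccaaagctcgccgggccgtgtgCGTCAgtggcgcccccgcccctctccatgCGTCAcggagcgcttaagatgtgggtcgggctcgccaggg
Fos (chr12:85473640-85473889, plus strand): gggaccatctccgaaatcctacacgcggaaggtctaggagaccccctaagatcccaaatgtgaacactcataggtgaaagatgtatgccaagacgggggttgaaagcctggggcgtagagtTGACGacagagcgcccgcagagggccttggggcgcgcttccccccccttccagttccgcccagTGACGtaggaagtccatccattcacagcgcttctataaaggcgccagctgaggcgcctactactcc
Nr4a2 (chr2:57124004-57124253, minus strand): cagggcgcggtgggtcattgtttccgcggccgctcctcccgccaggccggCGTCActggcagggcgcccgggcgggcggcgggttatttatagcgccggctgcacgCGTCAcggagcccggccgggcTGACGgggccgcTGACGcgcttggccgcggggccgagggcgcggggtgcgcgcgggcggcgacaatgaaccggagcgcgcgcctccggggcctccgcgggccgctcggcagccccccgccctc
The first base of each match, counted back from -1 at the base before the start, was at -179 and -169 in Npas4, at -233, -213, -69 and -40 in Nr4a1, at -129 and -66 in Fos and at -200, -144, -123 and -111 in Nr4a2. Nr4a1, which rose, and Nr4a2, which fell, thus held 4 matches each. The promoters of Fosl2 and Ier5 held 0 matches in this window. The promoter of Egr1, which also rose, was not examined. Of 32851 RefSeq mouse promoter windows of this length, 17.8% held at least 1 match, 3.90% at least 2 and 0.137% at least 4. These are letter matches in a reference sequence, and binding was not measured.

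**Figure D3:**
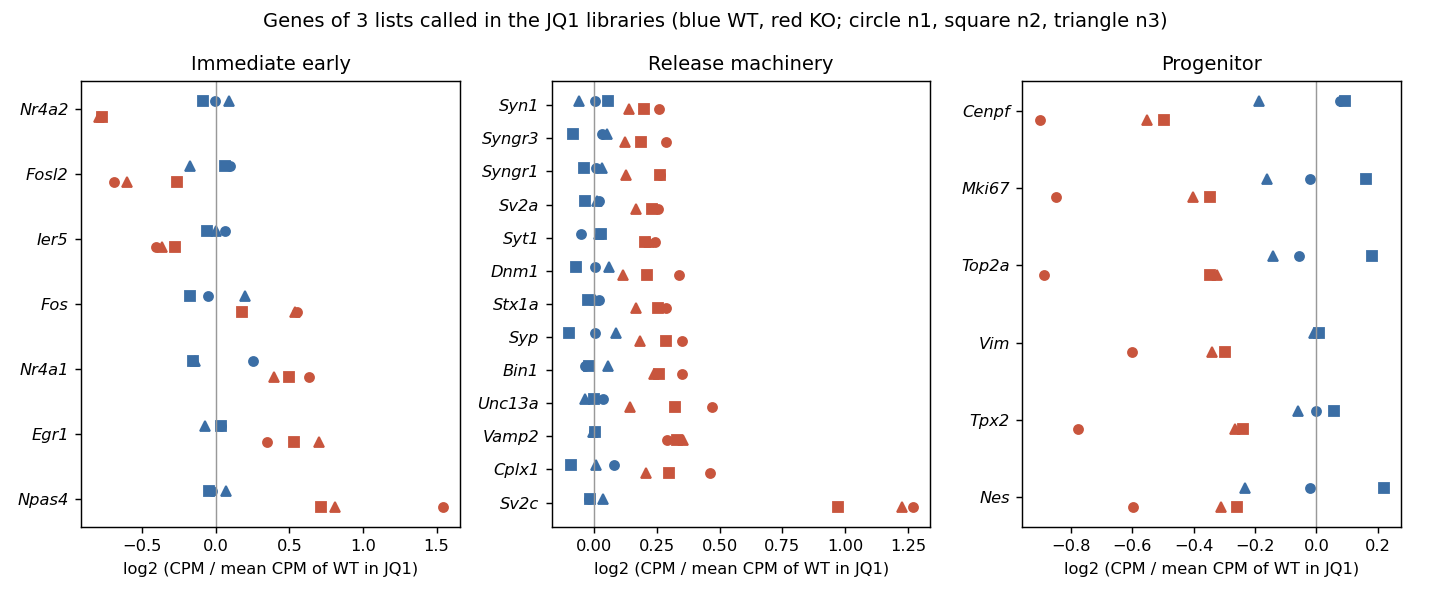
Each point is 1 JQ1 library, placed by the log2 ratio of its CPM to the mean of the WT JQ1 libraries (x axis), for the called members of 3 lists that are reported by name (rows). Immediate early genes part in both directions, the release genes shown lie to the right in KO (red) and the 6 called progenitor genes to the left.

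Synaptic vesicle release depends on the SNARE proteins and their regulators. Of 51 tested genes of this machinery 15 rose and 0 fell (median 0.10), each by less than 0.4 on the log2 scale apart from Sv2c. The vesicle SNARE gene Vamp2 was at 803, 805 and 801 CPM in WT and 982, 1009 and 1026 in KO (log2 change 0.33, SE 0.0519, adjusted p = 0.0029). Bin1, which bends membranes in endocytosis, was at 119.5, 121 and 127 CPM in WT and 156, 146 and 144 in KO (log2 change 0.28, SE 0.0497, adjusted p = 0.00493). The calcium sensor gene Syt1 was at 611, 645 and 642 CPM in WT and 749, 728 and 735 in KO (log2 change 0.22, SE 0.0438, adjusted p = 0.00845). None of these overlapped between the genotypes. Others that rose were the vesicle proteins Syp (0.28), Sv2a (0.22), Syngr1 (0.22), Syngr3 (0.20) and Syn1 (0.20), the plasma membrane SNARE Stx1a (0.24), the clamp Cplx1 (0.33), the priming factor Unc13a (0.32) and the dynamin Dnm1 (0.23). All 15 also rose in DMSO. The count was 7 without WT_JQ1 replicate 2, 9 without WT_JQ1 replicate 1 and 8 without KO_JQ1 replicate 1, and 17 without both KO replicate 3 libraries, where 1 fell. With spike-in scaling 0 of the 51 rose and 0 fell (median -0.0043). Hpca, a neuronal calcium sensor, was at 41.5, 49.9 and 42.9 CPM in WT and 54.3, 80.5 and 74.3 in KO (log2 change 0.63, SE 0.119, adjusted p = 0.00656).

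Receptor genes went both ways. Of 24 glutamate receptor genes 4 rose and 4 fell (median 0.09), and the number that rose was 1 without WT_JQ1 replicate 1 or 2 and 2 without KO_JQ1 replicate 1 or 2. Grin1, the obligatory NMDA receptor subunit, was at 121, 116 and 131 CPM in WT and 166, 154 and 139 in KO (log2 change 0.32, SE 0.0613, adjusted p = 0.00716). The kainate receptor genes were split: Grik2 was at 91.4, 91.7 and 91.6 CPM in WT and 72.2, 72.4 and 77.8 in KO (log2 change -0.31, SE 0.0429, adjusted p = 0.00169) and Grik3 at 111, 104 and 115 CPM in WT and 56.8, 83.8 and 63.8 in KO (log2 change -0.68, SE 0.134, adjusted p = 0.00804), below WT in every KO library, while Grik1 (0.29) and Grik4 (0.40) rose. Of 15 GABA receptor subunits, the gamma subunit gene Gabrg3, at 12.2, 13.3 and 14.1 CPM in WT and 19, 17.5 and 19.1 in KO (log2 change 0.49, SE 0.0766, adjusted p = 0.00281), and Gabra5 (0.24) rose, and Gabra3 (-0.45) and Gabrb2 (-0.20) fell. Without WT_JQ1 replicate 1 or 2 neither fall passed, and over the 6 fits their adjusted p-values went as high as 0.103 for Gabra3 and 0.191 for Gabrb2. The glycine receptor gene Glra2, typical of immature cortex, was at 70.6, 66.7 and 73.6 CPM in WT and 34.8, 41.8 and 45.6 in KO (log2 change -0.78, SE 0.0847, adjusted p = 3.29e-04). Among 41 postsynaptic scaffold and adhesion genes 6 rose, such as the scaffold gene Dlg4 (0.20) and the leucine-rich adhesion gene Lrfn2 (0.27), and 1 fell, the presynapse-organising gene Lrrtm4 (log2 change -0.61, SE 0.118, adjusted p = 0.00769). The scaffold genes that rose numbered 1 without KO_JQ1 replicate 2, 2 without WT_JQ1 replicate 1 and 3 without WT_JQ1 replicate 3 or KO_JQ1 replicate 1. Of 57 potassium and HCN channel genes 10 rose and 1 fell (median 0.10): the inward rectifier gene Kcnj4 was at 24.1, 22.7 and 24.8 CPM in WT and 35.3, 33.1 and 29.9 in KO (log2 change 0.46, SE 0.0734, adjusted p = 0.00284), and Kcna6, a Kv1 subunit, at 39.2, 39.9 and 42.1 CPM in WT and 32.8, 32.5 and 35.1 in KO (log2 change -0.27, SE 0.0547, adjusted p = 0.00926). Without KO_JQ1 replicate 1 the potassium channels that rose numbered 3, without WT_JQ1 replicate 2 5, without WT_JQ1 replicate 1 or 3 6, and without both KO replicate 3 libraries 16. Of 24 sodium and calcium channel genes 6 rose and 2 fell, a count of 2 or 3 higher without any 1 of the JQ1 libraries other than KO_JQ1 replicate 3. Peptide precursors had 5 of 30 higher and 1 lower, Vip and Tac2 among the former and Nxph3 the latter, and the number higher was 3 without WT_JQ1 replicate 1, WT_JQ1 replicate 2 or KO_JQ1 replicate 1.

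Messenger RNAs bound by FMRP, 67 in this list, had 7 higher and 1 lower (11.9% called against 8.97% of all genes; median 0.07). Those that rose were Camk2a, Shank2 (0.30), Kcnd2 (0.27), Nlgn2 (0.23), Camk2b, Dlg4 and Tsc2 (0.17). The count that rose was 1 to 3 when any 1 JQ1 library other than KO_JQ1 replicate 3 was left out, 15 without KO_JQ1 replicate 3 and 16 without both KO replicate 3 libraries. Of 43 autism risk genes 1 rose, Tsc2, and 3 fell, Tbr1 and Ube3a (-0.34) among them, a share close to the 8.97% of all genes. These counts were 0 and 1 without replicate 1 or 2 of either genotype, 0 and 3 without WT_JQ1 replicate 3, 2 and 6 without KO_JQ1 replicate 3, and 2 and 7 without both KO replicate 3 libraries. Tsc2 lost its call in 5 of the 6 fits that left out 1 JQ1 library (adjusted p up to 0.139) and Ube3a in 4 (up to 0.148). Of 35 mTOR and PI3K pathway genes 2 rose and 4 fell, among them the PI3K regulatory subunit gene Pik3r3, at 112, 107 and 116 CPM in WT and 72.8, 81.7 and 85 in KO (log2 change -0.48, SE 0.0621, adjusted p = 0.00102). The pathway had 0 higher and 1 lower without WT_JQ1 replicate 1 or 2, 0 and 2 without KO_JQ1 replicate 1 or 2, 2 and 8 without WT_JQ1 replicate 3, 3 and 5 without KO_JQ1 replicate 3, and 4 and 5 without both KO replicate 3 libraries. Pik3r3 kept its call in all 6 fits that left out 1 JQ1 library.

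Markers of dividing cells and of glia summed to lower levels in KO. Of 25 progenitor and proliferation markers 6 fell and 0 rose (median -0.36), and their summed level was 751 to 836 CPM in WT and 520.4 to 667 in KO. Cenpf, a kinetochore protein of mitosis, was at 30.2, 30.6 and 25.2 CPM in WT and 15.3, 20.3 and 19.5 in KO (log2 change -0.65, SE 0.112, adjusted p = 0.00462). Vim, the intermediate filament of radial glia, was at 182, 183 and 181 CPM in WT and 120.1, 148 and 144 in KO (log2 change -0.41, SE 0.073, adjusted p = 0.00534). Both were below WT in every KO library. Top2a (-0.50), Mki67 (-0.52), Tpx2 (-0.41) and Nes (-0.39) also fell. The count was 2 without replicate 1 or 2 of WT_JQ1 or replicate 1 of KO_JQ1, and 13 without both KO replicate 3 libraries, where 1 rose. Astrocyte and radial glia markers summed to 1356 to 1758 CPM in WT and 850.2 to 1336 in KO, with 2 of 20 lower and 0 higher (median -0.35). These were the growth factor receptor gene Fgfr3, at 30.5, 36.8 and 30.1 CPM in WT and 15.5, 24.6 and 21.1 in KO (log2 change -0.67, SE 0.142, adjusted p = 0.0119), and the matrix gene Tnc (-0.39). The glutamate transporter gene Slc1a3 was lowest in KO replicate 1, at 296, 386 and 280.1 CPM in WT and 148, 269.9 and 264 in KO (-0.50, adjusted p = 0.12). Fgfr3 lost its call without WT_JQ1 replicate 2 (adjusted p = 0.0693), which left 0 astrocyte markers, and Tnc lost its call without WT_JQ1 replicate 1 and without KO_JQ1 replicate 1 as well. Without both KO replicate 3 libraries 7 of them fell. Oligodendrocyte lineage markers had 0 of 12 called, at 193 to 202 CPM in WT and 161 to 216 in KO. These shifts accompany the neuron type changes above, and their part in them was not tested.

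Other leading genes lay outside the lists or in small groups. Hapln1, the link protein of perineuronal nets, was at 8.77, 7.29 and 12.9 CPM in WT and 32.5, 16.2 and 31.6 in KO (log2 change 1.53, SE 0.264, adjusted p = 0.00436). Prss12, the synaptic protease neurotrypsin, was at 13, 12.8 and 12.1 CPM in WT and 26.7, 20.6 and 19 in KO (log2 change 0.80, SE 0.105, adjusted p = 0.0011). Ntf3, the neurotrophin NT-3, was at 5.69, 4.81 and 4.86 CPM in WT and 7.26, 8.73 and 8.55 in KO (log2 change 0.68, SE 0.0965, adjusted p = 0.00186). All 3 were higher in KO without overlap, as were Rgs8 (0.85), a regulator of G protein signalling, Adamts8 (0.64), a matrix protease gene, Rassf3 (0.64) and the acid-sensing channel gene Accn4 (0.93; adjusted p = 0.0582 without WT_JQ1 replicate 2). Cyp26b1, which degrades retinoic acid, was at 6.50, 4.72 and 6.86 CPM in WT and 2.80, 2.13 and 2.96 in KO (log2 change -1.19, SE 0.177, adjusted p = 0.00217). The kinesin-like gene Kif26a was at 49.6, 46.4 and 48.1 CPM in WT and 23.5, 30.3 and 24.6 in KO (log2 change -0.87, SE 0.098, adjusted p = 4.10e-04), and Gas1, a Hedgehog coreceptor gene, at 25.5, 27.7 and 23.6 CPM in WT and 11.6, 17.8 and 14.1 in KO (log2 change -0.81, SE 0.116, adjusted p = 0.00194). Nfib, a nuclear factor I gene of deep-layer neurons and glia, was at 251, 266 and 224 CPM in WT and 142, 159 and 160.3 in KO (log2 change -0.68, SE 0.0834, adjusted p = 7.13e-04). In these 4 genes every KO library was below every WT library. Lack of overlap was a condition for choosing the genes of largest log2 change, so for those genes, here and above, it adds nothing to the call. For other called genes it adds little, because 1350 of the 1385 called had no overlap. Abundant genes that fell were Xpr1 (-0.37), a phosphate exporter, B3gat1 (-0.45), which makes the HNK-1 carbohydrate, and Top2b (-0.27), a topoisomerase. Of 50 axon guidance genes 5 rose and 8 fell, the latter including the ephrin receptor gene Ephb1, at 45.1, 40.6 and 41 CPM in WT and 25.7, 29 and 26.8 in KO (log2 change -0.63, SE 0.0717, adjusted p = 4.10e-04), and the netrin-like Ntng1 (-0.56). These counts were 0 and 4 without WT_JQ1 replicate 1, 2 and 3 without WT_JQ1 replicate 2, 2 and 5 without KO_JQ1 replicate 1, 1 and 7 without WT_JQ1 replicate 3, and 2 and 6 without KO_JQ1 replicate 2. Of 26 cadherins 1 rose and 3 fell, Cdh7 (-0.70) and Cdh18 (-0.53) among the latter, against 1 and 5 without KO_JQ1 replicate 2. The cadherins higher were 0 without WT_JQ1 replicate 1, WT_JQ1 replicate 2 or KO_JQ1 replicate 1 and 2 without WT_JQ1 replicate 3 or KO_JQ1 replicate 3.

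Lists of general cell function had shares called on both sides of the 8.97% over all genes, such as 15.5% of chromatin genes and 2.63% of ribosomal protein genes. Of 84 chromatin enzymes and remodellers 4 rose and 9 fell, including the X-linked demethylase gene Kdm6a, at 33, 32.3 and 29.97 CPM in WT and 24.1, 26 and 22.5 in KO (log2 change -0.39, SE 0.079, adjusted p = 0.00885), and the Polycomb genes Ezh2 (-0.29) and Suz12 (-0.20). The fallen chromatin genes numbered 1 without WT_JQ1 replicate 1 or 2, 2 without KO_JQ1 replicate 2 and 3 without KO_JQ1 replicate 1, and 12 without both KO replicate 3 libraries, where 11 rose. The chromatin genes that rose numbered 0 or 1 when any 1 JQ1 library other than KO_JQ1 replicate 3 was left out and 9 without that one. From the 6 JQ1 libraries alone 0 chromatin genes rose and 1 fell. Of 5 tested genes that escape X inactivation 2 fell, Kdm6a and Ddx3x (-0.20, adjusted p = 0.0321), and 0 rose. Without replicate 1 or 2 of either genotype 1 fell. Kdm6a was low in all 3 KO libraries, those with Xist included, and the cause was not tested. Cholesterol synthesis genes had 4 of 29 higher and 0 lower, Mvd (log2 change 0.28, SE 0.0583, adjusted p = 0.00994) with the smallest adjusted p. Replication-dependent histone genes had 3 of 23 higher and 0 lower, heat shock and stress response genes 4 of 29 and 1, respiratory chain subunits 3 of 73 and 0, cytosolic ribosomal proteins 1 of 76 and 1, receptors for amines and peptides 5 of 54 and 3, perineuronal net and hyaluronan matrix genes 2 of 26 and 3, fibroblast genes 1 of 19 and 2, and genes encoding Mid1 partners 2 of 16 and 1. From the 6 JQ1 libraries alone 0 stress response genes were called. Single libraries moved these small counts. Without WT_JQ1 replicate 1 or 2 the histone, stress response, respiratory chain and Mid1 partner lists had 0 higher and the cholesterol list 1. Without KO_JQ1 replicate 1 the stress response, respiratory chain and Mid1 partner lists had 0 higher, and without KO_JQ1 replicate 2 the histone and Mid1 partner lists 0 and the cholesterol list 1 (stress response genes 2, with 2 lower). Without WT_JQ1 replicate 3 the histone and stress response lists had 1 higher and the respiratory chain 7, and without KO_JQ1 replicate 3 the respiratory chain had 6 higher, Mid1 partners 4 and stress response genes 3, with 4 lower. Amine and peptide receptors had 2 higher and 1 lower without WT_JQ1 replicate 1 or KO_JQ1 replicate 1, 4 and 1 without replicate 3 of either genotype, 3 and 3 without WT_JQ1 replicate 2 and 3 and 7 without KO_JQ1 replicate 2. Matrix genes had 1 lower without WT_JQ1 replicate 1 or KO_JQ1 replicate 1. Fibroblast genes had 0 called without WT_JQ1 replicate 2 and 0 higher without WT_JQ1 replicate 1, KO_JQ1 replicate 1 or KO_JQ1 replicate 2. Interferon-stimulated genes had 0 of 22 called and mitochondrially encoded transcripts 0 of 14.

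**Figure D4:**
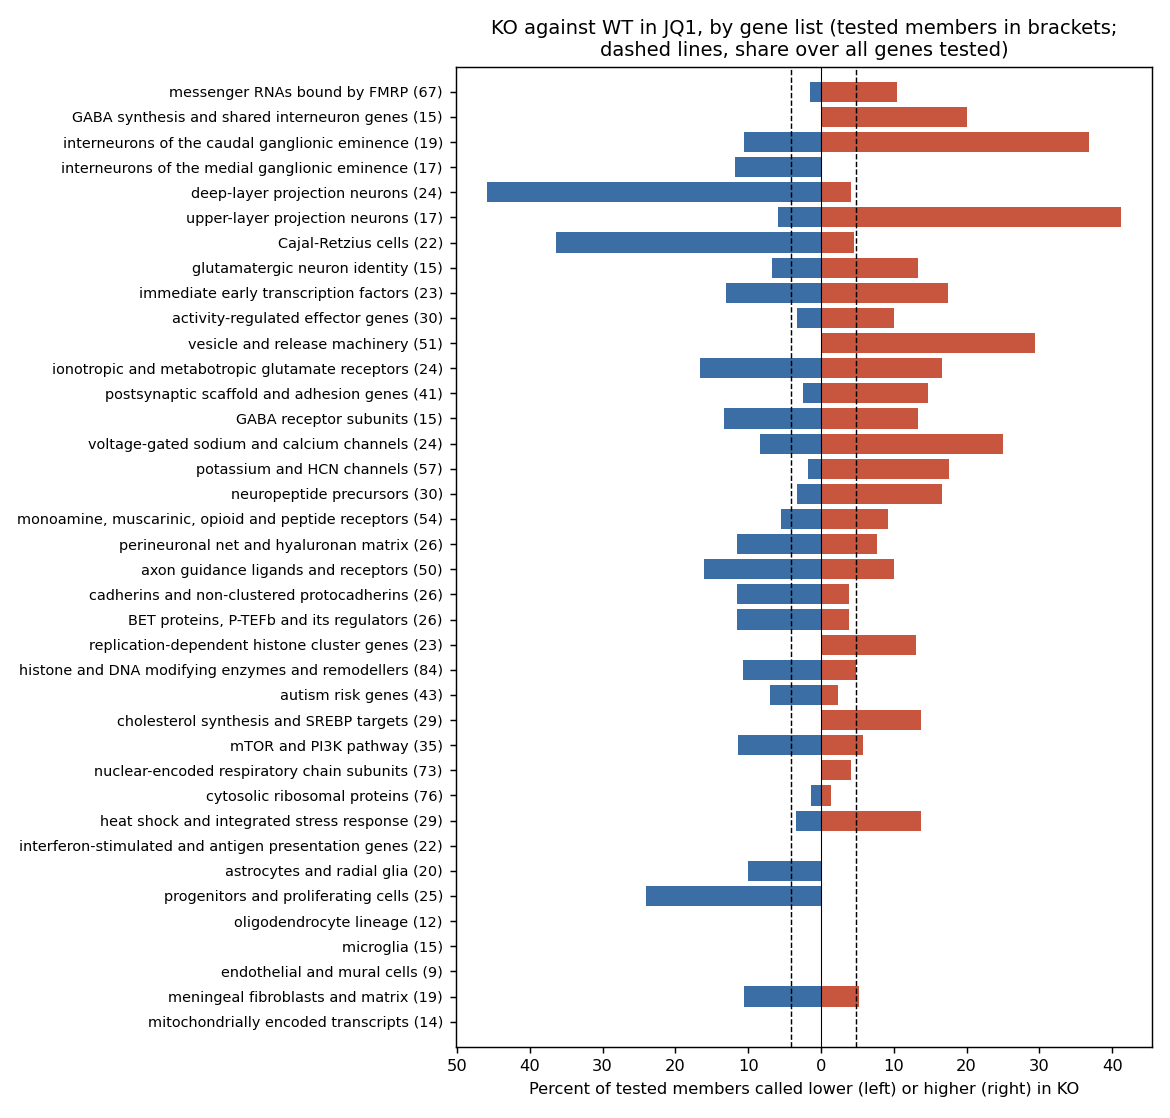
Share of the tested members of each list (rows, tested number in brackets) called lower (blue, left) or higher (red, right) in KO in JQ1, in percent. Dashed lines mark the shares over all genes, 4.13% lower and 4.85% higher. Deep-layer, Cajal-Retzius and progenitor lists extend to the left, and upper-layer, caudal interneuron and release machinery lists to the right.

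The genotype difference in JQ1 was then set beside that in DMSO, which compared 6 other libraries. Both came from 1 fit with a shared estimate of spread, so a gene's calls in JQ1 and DMSO are not independent. The DMSO libraries themselves may not be independent of the JQ1 ones, because same-numbered libraries of a genotype shared features across treatments. Xist in KO was at 231, 262 and 4.29 CPM in DMSO and 271, 259 and 4.34 in JQ1. Zic4 in WT was at 0.674, 0.290 and 4.04 CPM in DMSO and 0.865, 0.285 and 4.90 in JQ1. The tests did not model such a pairing. In DMSO 2311 genes (15%) passed, 1113 higher (7.21%) and 1198 lower (7.76%). Of these, 975 passed in JQ1 in the same direction, 540 higher and 435 lower, which is 70.4% of the calls in JQ1 and 42.2% of those in DMSO, and 0 passed in opposite directions. Another 410 genes passed in JQ1 and not in DMSO, of which 401 had the same sign there. Across the 15433 genes the log2 changes in JQ1 and DMSO had a Pearson correlation of 0.62, and of 0.91 over the 1385 called in JQ1, given as a description across genes, which are not independent replicates. The test of the difference between JQ1 and DMSO, run in edgeR over all genes, called 0 genes, with 355 at an unadjusted p under 0.05, and DESeq2 also called 0, with 235 at an unadjusted p under 0.05. A gene called in 1 treatment alone is therefore not shown to differ between them. Because pairing was not modelled, scatter shared by same-numbered libraries stayed in the error of this test. The 0 calls thus do not show equal changes in JQ1 and DMSO.

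The counts of each list in DMSO and in JQ1 are set side by side here, and the difference between the counts was not tested. Deep-layer markers had 14 lower and 1 higher in DMSO (median -0.49) against 11 and 1 in JQ1. The member higher in DMSO was Ntsr1 (0.22, adjusted p = 0.019), and Crym did not pass there (0.35, adjusted p = 0.261). Upper-layer markers had 8 higher and 1 lower against 7 and 1, and Cajal-Retzius markers 7 lower and 1 higher against 8 and 1. Caudal interneuron markers had 8 higher and 0 lower against 7 and 2, and shared interneuron genes 9 higher and 1 lower against 3 and 0. Progenitor markers had 9 lower and 0 higher against 6 and 0, and astrocyte markers 4 lower and 0 higher against 2 and 0. Release machinery genes had 19 higher and 2 lower against 15 and 0, FMRP-bound messenger RNAs 16 and 1 against 7 and 1, chromatin genes 12 and 11 against 4 and 9, and ribosomal protein genes 12 and 1 against 1 and 1. Mid1 had log2 changes of -3.10 in DMSO and -3.79 in JQ1, and its difference had an unadjusted p = 0.0194. The genes of smallest p for the difference were Ptpru, a receptor tyrosine phosphatase gene, which was 0.73 in DMSO and 0.23 in JQ1 (unadjusted p = 3.37e-04), and Snx7, a sorting nexin gene, at -0.15 and 0.40 (unadjusted p = 9.04e-04). Neither difference passed adjustment. Among guidance genes in that order, Sema6a was 0.22 in DMSO and -0.04 in JQ1 and Sema3d 0.19 and -0.63, and the Wnt inhibitor gene Sfrp1 was 0.49 and 0.10. The progenitor gene Nes was -0.07 in DMSO and -0.39 in JQ1 (unadjusted p of the difference 0.0439).

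**Figure D5:**
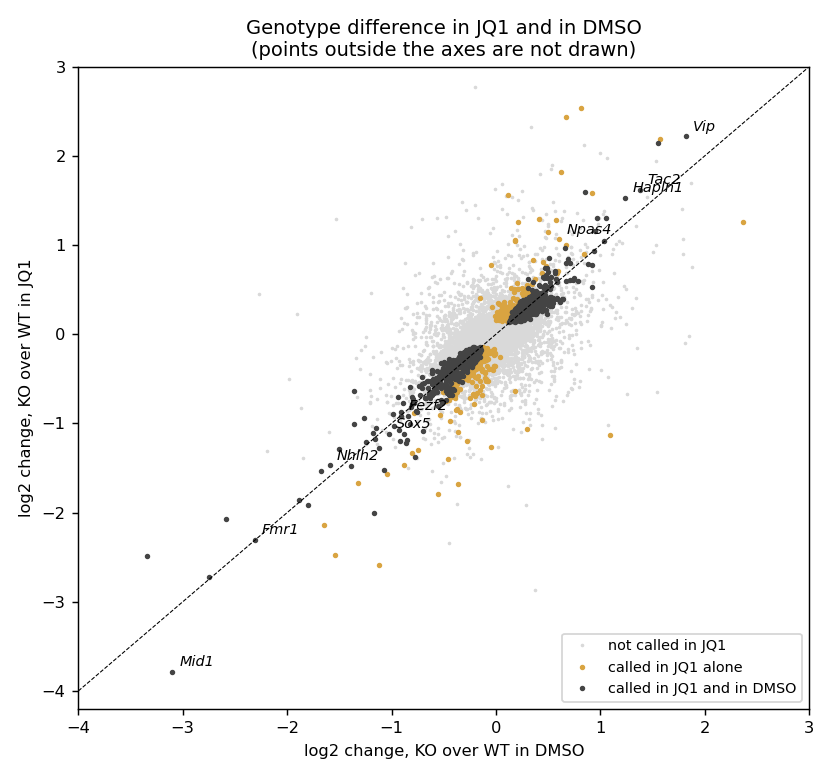
Log2 change of KO over WT in JQ1 (y axis) against that in DMSO (x axis), 1 point per tested gene within the axes. Genes called in both treatments (dark) lie along the dashed line of equal change, and genes called in JQ1 alone (orange) lie mostly in the same quadrants.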

How the data were processed

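The labels' protocols give TruSeq RNA libraries read as 75 bp single ends. The submitters' processing notes name TopHat2 2.1.0, SAMtools 0.1.19, HTSeq 0.6.1 and the mm9 build. The deposited values are raw counts for Ensembl genes, with no scaling. Whether strand was used is not stated, so overlapping genes are uncertain. The 92 spike-in rows were left out of library sizes.

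The analysis used edgeR 4.0.16 under R 4.3.3: filterByExpr (minimum count 10), TMM scaling, 1 mean per group over 12 libraries in 4 groups, and quasi-likelihood F tests for KO against WT in JQ1, in DMSO and for their difference, with p-values adjusted by Benjamini-Hochberg over 15433 genes and called under 0.05. Standard errors come from the F statistic. The biological coefficient of variation was 6.69%, and replicates differed by more than counting error, so depth alone does not limit precision. In simulated data for KO against WT in JQ1, with 200 of 15135 genes changed, the fit recovered 98% of 2-fold and 88% of 1.5-fold changes. It called 5 unchanged genes. The changed genes were drawn from well-covered genes alone and the simulated libraries were independent. These rates therefore do not cover genes with few reads or features shared between libraries. Alternatives were other scalings, no filter, DESeq2 1.42.0, the 6 libraries alone, a replicate block and leaving out libraries.

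The comparison, the 43 gene lists and the tests were chosen with earlier results of these data known. Named genes were Fmr1 and Mid1, the 15 rising and 15 falling called genes of largest log2 change (mean of 3 CPM or more in the higher group, no overlap), the 6 of largest change in mean CPM in each direction, the 5 of smallest p for the difference in each sign, and up to 6 called members per list of smallest p. Not all of them are named, and some are not reported here. Further members, and Fos, Nfia, Zfpm2, the uncalled markers and the library checks, were chosen after their values were seen.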

Additional observations from a re-analysis of the deposited data

How the results depend on the processing

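The count of genes called between KO and WT in JQ1, 1385 in all, was 630 from the 6 JQ1 libraries alone, 23 with spike-in scaling and 2469 without both KO replicate 3 libraries, and ranged from 534 to 2027 when 1 JQ1 library was left out. Other size factors (1374), no low-count filter (1590) and DESeq2 (1904) stayed within 1.5 times. In DMSO the count of 2311 became 11994 with spike-in scaling (4 higher, 11990 lower) and ranged from 885 to 2540 when 1 DMSO library was left out. The difference between treatments had 0 calls under every alternative run. From the 6 JQ1 libraries alone 10 deep-layer markers fell and 12 release machinery genes rose. A replicate block called 1953 genes in JQ1, 966 higher and 987 lower. Same-numbered KO and WT libraries in JQ1 had correlations of deviations from -0.016 to 0.12. Of 3 KO libraries 2 correlated best with their own number. The numbers were therefore not taken as KO and WT pairs, and pairing across treatments was not modelled. Of 212 called genes checked, 79 kept their call in all 6 fits that left out 1 JQ1 library, among them Fmr1, Mid1, Sox5, Fezf2, Bcl11b, Nhlh2 and Vip. Leaving out WT_JQ1 replicate 3, the shallowest library, gave 1227 calls. The cause of these shifts was not tested.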
